A study of Mus musculus with 4 samples.

Results

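The 92 respiratory chain genes described here are the mouse genes for the subunits of the 5 complexes of oxidative phosphorylation. They were chosen by gene name, through the GENCODE M21 annotation: protein-coding genes called Nduf followed by a, b, c, s or v and a number, Sdha to Sdhd, Uqcr, Cox4 to Cox8, Atp5, and the protein genes of mitochondrial DNA. Of 22456 genes in the table, 79 were nuclear-encoded and 13 mitochondrially encoded members. The names cover a few genes that are not structural subunits, such as Atp5s, and leave out the hypoxia isoforms Ndufa4l2 and Cox4i2. Another 4 annotated genes that match by name (Cox7b2, Cox8b, Cox8c and a duplicate entry of Atp5o) were not analysed here. A filter on low values (a mean of at least 3.32, which is log2 of 10) kept 91 members. The one below it was Cox6a2, the muscle isoform of a cytochrome oxidase subunit, at 1.31 to 1.34 (log2) in all 4 libraries.

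The respiratory chain passes electrons from NADH and succinate to oxygen through complexes I to IV, and complex V uses the resulting proton gradient to make ATP. Complexes I, III, IV and V each combine subunits from both genomes, while complex II is wholly nuclear-encoded. Nuclear subunit genes are transcribed one by one in the nucleus, under factors such as NRF1 and GABP. The mitochondrial genes are transcribed as long transcripts from both strands of mitochondrial DNA, which are then cut into single RNAs, so the levels of the mature RNAs also depend on their processing and stability.

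Libraries came from fibroblasts of tumours grown in Balb/cAnN mice from 4T1 cells, a mammary carcinoma line of the same strain, transplanted orthotopically. The GSK group (2 libraries) comes from tumours of 4T1 cells kept in 5 µM of the compound GSK269962A for 5 days before transplantation. The DMSO group (2 libraries) comes from tumours of 4T1 cells given DMSO, the solvent. The fibroblasts themselves did not receive the compound, per the labels. They are the cells left after antibody depletion of cells bearing CD45, CD31, CD326 or human CD2, in a double passage over columns. Such a fraction can hold any cell without these markers. The age of the mice, the time of collection and the number of mice behind each library are not given in the sources used here. A p-value therefore speaks of the spread between these 4 libraries, which may be technical. The authors normalised the expression values, which stand on a log2 scale, and read depth is unknown. In bulk RNA, fewer cells of a type and less RNA per cell cannot be told apart.

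The labelled cell type was checked against markers. The collagens of the fibroblast list were the highest marker genes, with Col1a1, a chain of type I collagen, at 20.46 and 20.58 in GSK and 20.48 and 20.52 in DMSO (log2). Levels of the other genes did not separate the fibroblast list from the pericyte or smooth muscle list. Fap, of the fibroblast list, had 10.71 and 10.92 in GSK and 10.65 and 10.75 in DMSO. Acta2, of the pericyte or smooth muscle list, had 14.91 and 15.05 in GSK and 14.68 and 14.98 in DMSO. Col1a1, Col1a2, Pdgfra, Lum, Fap and Acta2 overlapped between the groups. Without overlap, Pdpn (change -0.37), Dcn (-0.31) and Col3a1 (-0.30) were lower in GSK, and Pdgfrb (0.33) and Thy1 (0.08) higher. The rest of the pericyte or smooth muscle list, Rgs5 (0.27), Cspg4 (0.49), Mcam (0.34) and Myh11 (0.28), was higher in GSK without overlap. The summed fibroblast list, with 10 of 10 tested, came to 21.58 and 21.67 in GSK and 21.71 and 21.69 in DMSO. The summed linear values of the pericyte or smooth muscle list, of which 5 of 5 were tested, came to 15.51 and 15.59 in GSK against 15.19 and 15.49 in DMSO (log2), and those of the leukocyte list, with 6 of 7 tested, to 12.08 and 11.53 in GSK against 11.32 and 11.07 in DMSO. The leukocyte sum came mainly from Cd53, at 11.81 and 11.15 in GSK and 10.70 and 10.46 in DMSO, while Ptprc, the gene for CD45, lay between 3.77 and 3.91. Of the 6 tested leukocyte genes, 4 had estimates above 0: Cd53, Ptprc (0.07, overlapping), Coro1a (0.03, overlapping) and Laptm5 (0.06). Laptm5 had both GSK libraries above both DMSO libraries. The other 2 had estimates below 0. Csf1r, of macrophages, had 8.30 and 8.14 in GSK and 8.39 and 8.28 in DMSO (-0.12, overlapping). Cd3e, of T cells, had a change of -0.30, with both GSK libraries below both DMSO libraries. Itgam, the integrin of myeloid cells, lay below the filter at 1.45 to 1.48. The epithelial or 4T1 list, with 3 of 5 tested, was lower in GSK than in DMSO (8.90 and 8.70 in GSK against 9.10 and 9.04 in DMSO), and Epcam, the gene for CD326, was at 0.32 in every library. The endothelial list, with 2 of 5 tested, overlapped between the groups at 6.05 and 6.07 in GSK and 6.04 and 6.14 in DMSO. No marker passed an adjusted p of 0.05 in limma, which 0.282% of all tested genes did. An unadjusted p under 0.05 was seen for 4 of 5 pericyte or smooth muscle and 1 of 6 leukocyte markers higher in GSK. It was also seen for 2 of 3 epithelial markers lower, and for 1 of 10 fibroblast markers in each direction. Among all tested genes the share was 7.88% higher and 8.13% lower. The part of these lists in the results below was not tested.

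Comparing GSK with DMSO asks whether the nuclear and the mitochondrial genes of the chain, in the fibroblasts, differ with the pre-treatment of the cancer cells. The 2 sets lay on opposite sides of 0. Of 78 tested nuclear members, 65 had an estimate below 0, with a median change of -0.03 (log2), and none passed the test. Estimates below 0 made up 50.5% of all tested genes, and those above 0 49.5%. Of 13 mitochondrial members, 11 had an estimate above 0 with a median of 0.25, and 1, mt-Co3, passed as listed. mt-Co3 shares its sequence with a nuclear copy that has a row of its own. With the 6 genes whose copy has a row summed with that copy and the other 7 as listed, all 13 lay above 0, by 0.12 to 0.37, and none passed. In limma on the log2 values with Benjamini-Hochberg adjustment over all 14548 tested genes, 41 genes passed in either direction, which is 0.282%, with 0.151% higher and 0.131% lower. The median change of all tested genes was -0.00074.

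**Figure D1:**
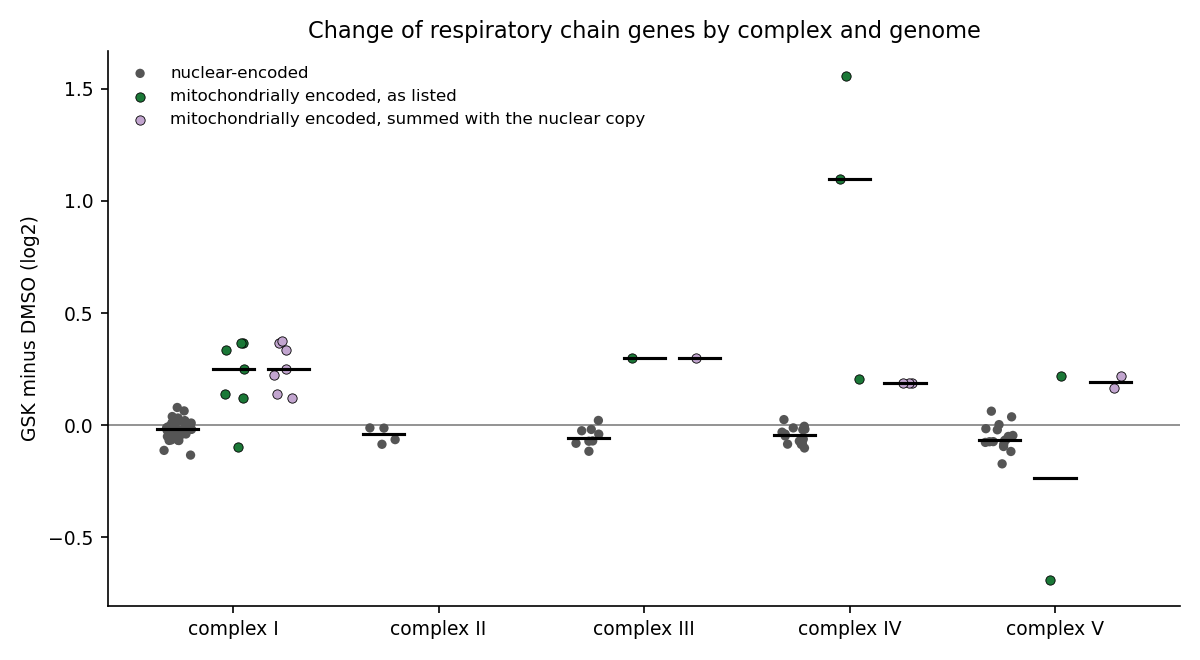
Change of each tested member (GSK minus DMSO, log2, vertical axis) by complex (horizontal axis). Each point is a gene, and the black lines are medians. The nuclear genes (grey) lie between -0.17 and 0.08, while the mitochondrial genes spread from -0.69 to 1.56 as listed (green) and from 0.12 to 0.37 with 6 of them summed with their nuclear copy (purple).

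Several mitochondrial genes share their sequence with the nucleus, and this bears on how their values can be read. For 7 of the 13 mitochondrial members, another annotated gene matched the transcript with at least 98% identity over at least 200 bases. All 7 copies lie in one block of nuclear DNA on chr1:24611535-24616197 (GRCm38, minus strand, 4663 bases), and are annotated as unprocessed pseudogenes. They pair mt-Co1 with Gm29216, mt-Co2 with Gm28661, mt-Atp6 with Gm10925, mt-Co3 with Gm28437, mt-Nd3 with Gm28438, mt-Nd4l with Gm10222 and mt-Nd4 with Gm28439, which was not analysed here. Compared end to end without gaps, mt-Co2 and its copy had 0 differing bases over 681 positions, mt-Atp6 0 over 678, mt-Co3 0 over 783, mt-Nd4l 0 over 294 and mt-Nd4 0 over 876. mt-Nd3 and its copy differed by T3C over 345 positions, counted from 1 at the first base of the mt-Nd3 transcript, with the base of mt-Nd3 given first. The copy of mt-Co1 is partial, with 483 aligned bases at 99.79% identity. A read inside these stretches can be placed on either row, and the values of the 7 genes and of their copies are uncertain. The other 6 members, called without a copy here, had no such match. The search covered annotated transcripts only, so shorter or unannotated matches would be missed. One of the 6, mt-Atp8 (chrM:7766-7969), lies partly inside mt-Atp6 (chrM:7927-8607), in bases shared with Gm10925.

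The ends of 3 pairs and the start of the mt-Nd3 pair are shown because they hold the bases in which these pairs differ, apart from 3 last bases of mt-Nd3 that its copy lacks. Capitals mark the bases present in the mitochondrial transcript beyond the copy, or the differing base. Sequences are from the GENCODE M21 transcripts, written 5′ to 3′ on the transcript's strand. The mitochondrial stretches lie at chrM:7597-7696, chrM:8508-8607, chrM:9291-9390 and chrM:9459-9558 (plus strand) and the copies at chr1:24614885-24614981, chr1:24613974-24614070, chr1:24613189-24613287 and chr1:24613020-24613119 (minus strand), all on GRCm38.
mt-Co2: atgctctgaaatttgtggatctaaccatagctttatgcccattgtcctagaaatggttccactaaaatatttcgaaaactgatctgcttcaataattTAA
Gm28661: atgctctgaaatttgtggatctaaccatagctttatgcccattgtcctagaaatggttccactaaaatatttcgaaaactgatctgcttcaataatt
mt-Atp6: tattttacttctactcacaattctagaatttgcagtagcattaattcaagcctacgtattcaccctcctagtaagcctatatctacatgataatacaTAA
Gm10925: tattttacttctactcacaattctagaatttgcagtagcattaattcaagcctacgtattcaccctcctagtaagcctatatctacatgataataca
mt-Co3: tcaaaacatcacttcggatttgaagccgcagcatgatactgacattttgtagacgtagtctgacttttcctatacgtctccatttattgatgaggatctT
Gm28437: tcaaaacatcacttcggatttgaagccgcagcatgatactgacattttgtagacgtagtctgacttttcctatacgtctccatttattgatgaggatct
mt-Nd3: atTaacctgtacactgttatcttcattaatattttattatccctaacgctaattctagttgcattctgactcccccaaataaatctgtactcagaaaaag
Gm28438: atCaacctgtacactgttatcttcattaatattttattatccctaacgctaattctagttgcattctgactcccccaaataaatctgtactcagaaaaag

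Among the 13 mitochondrial members, mt-Co3 and mt-Co2 of complex IV showed the widest gaps between listed and summed changes. mt-Co3, a core subunit of cytochrome c oxidase (ENSMUSG00000064358, chrM:8607-9390), had 14.06 and 13.93 in GSK and 12.23 and 12.65 in DMSO (log2), a change of 1.56 ± 0.13 (SE, limma adjusted p = 0.0251). Both GSK libraries lay above both DMSO libraries. The row of its copy, Gm28437 (chr1:24613189-24613971), ran the other way, with 13.88 and 13.46 in GSK against 14.41 and 14.19 in DMSO, a change of -0.63 ± 0.15 that did not pass (limma adjusted p = 0.127). The mt-Co3 row held 53.0% and 58.0% of the pair's summed linear value in GSK libraries and 18.0% and 25.6% in DMSO libraries. The pair summed to 14.98 and 14.71 in GSK and 14.70 and 14.61 in DMSO, with the lower GSK library barely above the higher DMSO library. The change of the sum was 0.19 ± 0.10 (limma adjusted p = 0.419).

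mt-Co2, which carries the copper site that takes electrons from cytochrome c, was listed at 7.90 and 8.74 in GSK and 6.87 and 7.56 in DMSO (1.10 ± 0.31, limma adjusted p = 0.172). Nearly all of that pair stood on the copy's row: Gm28661 had 15.11 and 14.98 in GSK and 14.95 and 14.78 in DMSO, and the mt-Co2 row held 0.668% and 1.30% of the pair in GSK and 0.368% and 0.669% in DMSO. Summed, the pair had 15.12 and 15.00 in GSK and 14.96 and 14.79 in DMSO, a change of 0.19 ± 0.09 (limma adjusted p = 0.357). The 2 groups did not overlap, by a small margin. mt-Co1, the catalytic subunit of the same enzyme, kept 88.4% to 91.0% of its pair on its own row in the 4 libraries. It had 16.97 and 16.81 in GSK and 16.72 and 16.64 in DMSO, a change of 0.21 ± 0.11 (limma adjusted p = 0.404), and 0.19 ± 0.11 when summed with its partial copy. After summing, the changes of the 3 complex IV genes lay within 0.187 to 0.190, where the listed values had run from 0.21 to 1.56. That closeness was not stable: with a library left out (chosen after seeing the data), summed mt-Co3 ran from 0.055 (without GSK library 1) to 0.320 (without GSK library 2), mt-Co2 from 0.103 to 0.277 and mt-Co1 from 0.118 to 0.256.

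**Figure D2:**
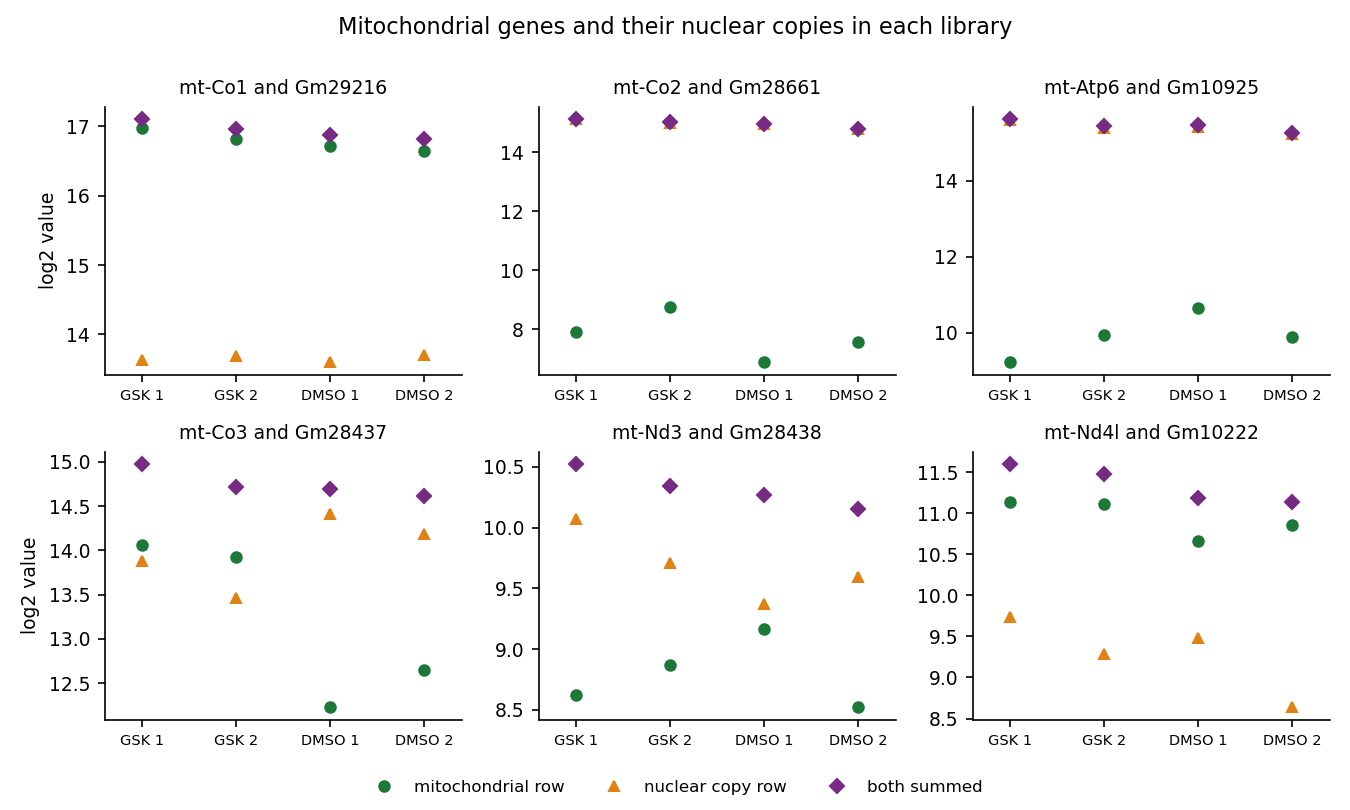
Log2 value (vertical axis, a scale for each panel) of 6 mitochondrial genes (green circles), of their nuclear copies (orange triangles) and of both summed (purple diamonds) in each library (horizontal axis). For mt-Co3 the 2 rows change places between GSK and DMSO, while the sum stays within 14.61 to 14.98.

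In complex V, mt-Atp6, the subunit of the proton channel, lay furthest below 0 as listed. It had 9.22 and 9.93 in GSK and 10.65 and 9.88 in DMSO, a change of -0.69 ± 0.30 (limma adjusted p = 0.331), and the groups overlapped. Its row held 1.17% and 2.20% of the pair in GSK and 3.54% and 2.38% in DMSO, with the rest on Gm10925. Summed with Gm10925, it had 15.63 and 15.44 in GSK and 15.47 and 15.27 in DMSO, a change of 0.16 ± 0.11 (limma adjusted p = 0.497), so the sign of the estimate turned. mt-Atp8, an accessory membrane subunit whose gene overlaps the start of mt-Atp6, matched no other annotated gene in the search. The overlapping stretch lies within the bases that mt-Atp6 shares with Gm10925, so the value of mt-Atp8 is uncertain too. The rest of mt-Atp8 lies between mt-Co2 and mt-Atp6, whose copies share the chromosome 1 block. It was not compared with unannotated bases of that block. It had 10.62 and 10.37 in GSK and 10.46 and 10.10 in DMSO (0.22 ± 0.13, limma adjusted p = 0.457). In both complex V genes the groups overlapped, also after summing.

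The 7 mitochondrial genes of complex I encode its membrane arm, which couples electron transfer to proton pumping. The ones without a copy were mt-Nd1, mt-Nd2, mt-Nd5 and mt-Nd6. mt-Nd1 had 14.29 and 14.19 in GSK and 13.90 and 13.85 in DMSO, a change of 0.37 ± 0.06 (limma adjusted p = 0.0703). mt-Nd2 had 13.25 and 13.13 in GSK and 12.98 and 12.89 in DMSO (0.25 ± 0.07, limma adjusted p = 0.147). Neither passed, though in both genes the GSK libraries lay above the DMSO libraries. mt-Nd5 had 13.82 and 13.69 in GSK and 13.64 and 13.58 in DMSO (0.14 ± 0.07, limma adjusted p = 0.369). mt-Nd6, the one protein gene read from the opposite strand, had 11.88 and 11.76 in GSK and 11.76 and 11.63 in DMSO (0.12 ± 0.06, limma adjusted p = 0.422). It gave the smallest change of the 13 once copies were summed, and its groups overlapped. Its end overlaps that of mt-Nd5 on the other strand, and whether counting used strand is not given in the sources used here.

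Among the complex I genes with a copy, mt-Nd4, which has no summed value because its copy was not analysed, had 14.81 and 14.68 in GSK and 14.45 and 14.36 in DMSO (0.34 ± 0.08, limma adjusted p = 0.116). mt-Nd4l had 11.14 and 11.12 in GSK and 10.66 and 10.86 in DMSO (0.37 ± 0.07, limma adjusted p = 0.0874), and with Gm10222 summed 11.60 and 11.48 in GSK against 11.19 and 11.14 in DMSO. That sum gave a change of 0.37 ± 0.06 and the smallest adjusted p of the 13 members in that fit, 0.0567 in limma. mt-Nd3 overlapped as listed, with 8.62 and 8.87 in GSK and 9.16 and 8.52 in DMSO (-0.10 ± 0.20, limma adjusted p = 0.848). Summed with Gm28438 it had 10.52 and 10.35 in GSK and 10.27 and 10.15 in DMSO, a change of 0.22 ± 0.07 (limma adjusted p = 0.209). Its groups then no longer overlapped.

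In complex III the one mitochondrial subunit, mt-Cytb, the cytochrome that carries electrons between the quinone sites, has no near-identical copy. It had 15.47 and 15.38 in GSK and 15.11 and 15.15 in DMSO, a change of 0.30 ± 0.07 (limma adjusted p = 0.140), with both GSK libraries higher.

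As listed, both GSK libraries lay above both DMSO libraries in 9 of 13 mitochondrial members (69.2%) and below in 0, against 24.1% above and 24.5% below among all tested genes. An unadjusted p under 0.05 in the higher direction was seen in 7 of 13 (53.8%), against 7.88% of all tested genes. With copies summed, the groups did not overlap in 10 of 13 (76.9%, against 24.1% of the 14542 genes of that fit). An unadjusted p under 0.05 was then seen in 6 (46.2%, against 7.9%), and 0 passed the adjusted threshold, which 0.282% of that fit's genes did. The 6 members without a copy, mt-Atp8 among them, gave a median of 0.24 with all 6 above 0. The 13 members with copies summed where the table holds one gave 0.22. These genes lie on 1 molecule and are read from shared transcripts, so they are not independent of each other. In the summed values GSK library 1 was the highest of the 4 libraries in 13 of 13 genes and DMSO library 2 the lowest in 12. Cd53 and the leukocyte sum had the same order at the ends, and their part was not tested. Over the alternative settings for listed rows, the change of mt-Co3 ran from 1.35 to 1.77 and that of mt-Nd4l from 0.27 to 0.47. Both changes were largest without DMSO library 2, and the rows of both genes are uncertain.

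**Figure D3:**
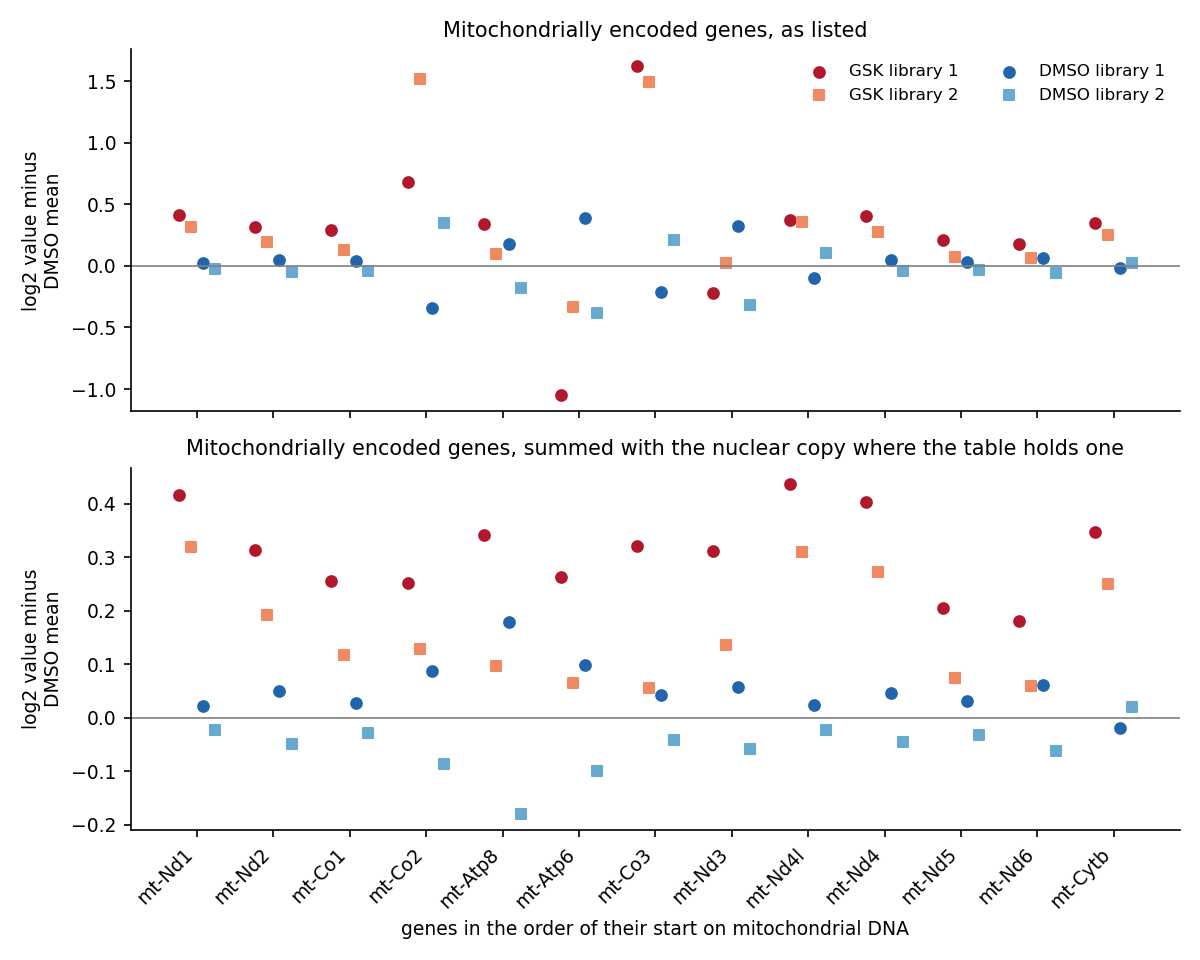
Value of each mitochondrial gene in each library relative to the DMSO mean (log2, vertical axis), for the rows as listed (upper panel) and with nuclear copies summed (lower panel, a narrower scale), in the order of the genes on mitochondrial DNA (horizontal axis). As listed, mt-Co2, mt-Atp6 and mt-Co3 stand far from the rest; summed, GSK library 1 is the highest in all 13 genes.

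The nuclear-encoded genes lay close to 0 in every complex. The changes of the 78 tested members ran from -0.17 (Atp5l) to 0.08 (Ndufc1), and 72 were under 0.1 in size. In limma none passed an adjusted p of 0.05, with adjusted p between 0.263 and 0.997. An unadjusted p under 0.05 was seen in 5 members (6.41%), all lower in GSK, against 8.13% of all tested genes. Estimates below 0 made up 83.3% of the members against 50.5% of all tested genes, and both GSK libraries lay below both DMSO libraries in 32 members (41.0%, against 24.5%) and above in 4 (5.13%, against 24.1%). Ndufb8, Ndufc1 and Atp5s were among the 4. The mean of the 78 genes was 9.63 and 9.60 in GSK libraries and 9.64 and 9.66 in DMSO libraries (log2), which do not overlap. GSK library 2 was the lowest of the 4 libraries in 42 of 78 members and DMSO library 2 the highest in 41. Without DMSO library 2, 55 estimates were below 0, and without GSK library 2, 57.

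**Figure D4:**
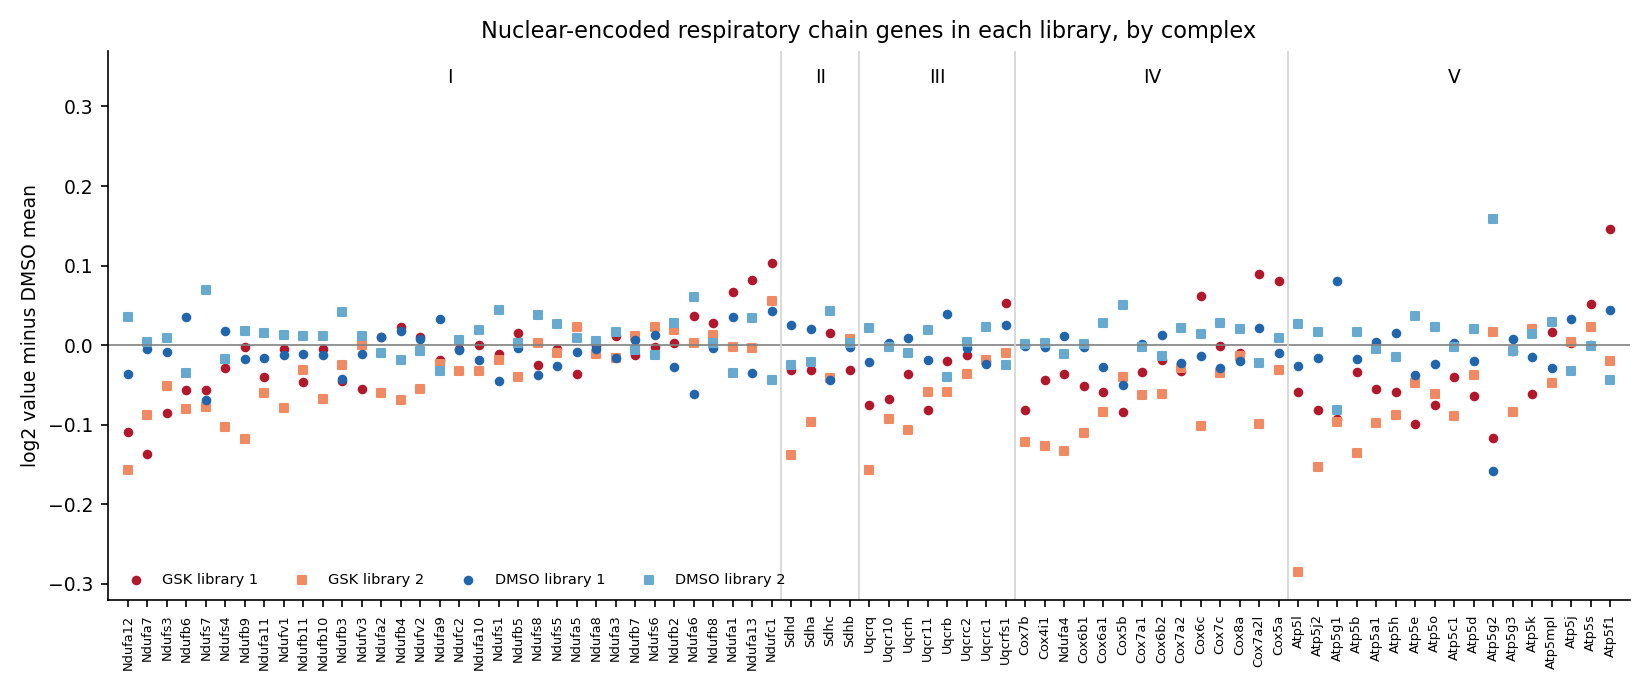
Value of each of 77 of the 78 tested nuclear-encoded members in each library relative to the DMSO mean (log2, vertical axis), by complex and, within a complex, by change (horizontal axis). Most values lie within 0.1 of the DMSO mean, and GSK library 2 (orange squares) is the lowest of the 4 libraries in 42 genes.

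Complex I, the entry point for electrons from NADH, holds 35 of the nuclear members, and their median change was -0.02, with 27 below 0 and 7 whose groups did not overlap in the lower direction, where 24.5% of all tested genes did so. The median was -0.0045 without GSK library 2 and -0.0068 without DMSO library 2. The lowest were accessory subunits. Ndufa12 had 8.46 and 8.41 in GSK and 8.53 and 8.60 in DMSO (-0.13 ± 0.05, limma adjusted p = 0.263), and Ndufa7 had 9.31 and 9.36 in GSK and 9.45 and 9.46 in DMSO (-0.11 ± 0.04, limma adjusted p = 0.281). In both, each GSK library was below each DMSO library. Ndufs3, a core subunit of the arm that reaches into the matrix, had 9.96 and 9.99 in GSK and 10.03 and 10.05 in DMSO (-0.07 ± 0.04). At the other end, Ndufc1 had 8.51 and 8.46 in GSK and 8.45 and 8.36 in DMSO (0.08 ± 0.05), and Ndufa13, also known as Grim19, had 9.67 and 9.58 in GSK against 9.55 and 9.62 in DMSO (0.04 ± 0.05). Ndufs3, Ndufc1 and Ndufa13 did not pass, with limma adjusted p between 0.468 and 0.753.

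Complex II, succinate dehydrogenase, belongs to both the chain and the TCA cycle and has no mitochondrial gene. All 4 members were below 0, with a median of -0.04, which was -0.069 without GSK library 1, leaving GSK library 2 alone. The mean of the 4 was 10.430 in GSK library 1 and 10.383 in GSK library 2, against 10.450 in each DMSO library. The membrane anchor Sdhd had 10.21 and 10.11 in GSK and 10.27 and 10.22 in DMSO (-0.08 ± 0.05), and the flavoprotein Sdha had 11.04 and 10.98 in GSK and 11.10 and 11.05 in DMSO (-0.06 ± 0.05). Both had non-overlapping groups. The other anchor, Sdhc, and the iron-sulphur subunit, Sdhb, overlapped, each with a change of -0.01. The smallest limma adjusted p of the complex was 0.472.

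Complex III hands electrons from ubiquinol to cytochrome c. Of 8 nuclear members 7 were below 0 (median -0.05), and 5 had both GSK libraries below both DMSO libraries (against 24.5% of all tested genes). The median was -0.028 without GSK library 2. The small subunits led: Uqcrq had 10.05 and 9.97 in GSK and 10.10 and 10.15 in DMSO (-0.12 ± 0.05, limma adjusted p = 0.311), Uqcr10 had 9.33 and 9.30 in GSK against 9.40 and 9.39 in DMSO (-0.08 ± 0.04), and Uqcrh, the hinge protein, had 10.57 and 10.50 in GSK against 10.61 and 10.60 in DMSO (-0.07 ± 0.05). Uqcrfs1, the Rieske iron-sulphur protein, was the one member above 0 at 0.02 ± 0.05, and its groups overlapped.

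In complex IV, cytochrome c oxidase, 13 of 14 tested nuclear members were below 0, with a median of -0.04 and 8 lower without overlap (against 24.5% of all tested genes). The median was -0.073 without GSK library 1, which leaves GSK library 2 alone. The mean of the 14 was 9.686 in GSK library 1 and 9.626 in GSK library 2, against 9.692 and 9.710 in DMSO. Cox7b had 10.19 and 10.15 in GSK and 10.27 and 10.28 in DMSO (-0.10 ± 0.04, limma adjusted p = 0.308). Cox4i1, the common isoform of a regulatory subunit, had 11.48 and 11.40 in GSK and 11.52 and 11.53 in DMSO (-0.09 ± 0.05), and Ndufa4, named for complex I but found in complex IV, had 9.93 and 9.83 in GSK against 9.98 and 9.95 in DMSO (-0.08 ± 0.05). Cox5a was the exception, with 9.92 and 9.80 in GSK and 9.83 and 9.84 in DMSO (0.03 ± 0.05). The tissue isoforms Cox7a1 and Cox6b2 passed the filter at low values. Cox7a1, the heart and muscle isoform, had 4.00 and 3.97 in GSK and 4.03 and 4.03 in DMSO, and Cox6b2, the testis isoform, had 5.58 and 5.54 in GSK against 5.62 and 5.59 in DMSO. Of the muscle genes, Ckm lay at 0.59 to 0.61 and Myh4 at 1.45 to 1.48 in the same libraries. Acta1 lay higher, at 5.42 to 5.50, and passed the filter.

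Complex V, ATP synthase, had a median of -0.06 over 17 nuclear members, with 14 below 0 and 10 lower without overlap (against 24.5% of all tested genes). Atp5l, a subunit of the membrane part, had 9.54 and 9.31 in GSK and 9.57 and 9.62 in DMSO (-0.17 ± 0.08, limma adjusted p = 0.348), and Atp5j2, another, had 10.17 and 10.10 in GSK and 10.24 and 10.27 in DMSO (-0.12 ± 0.05, limma adjusted p = 0.286). GSK library 2 was the lowest in both. Atp5g1, one of the genes for the c-ring, had 8.45 and 8.45 in GSK and 8.62 and 8.46 in DMSO (-0.09 ± 0.06). Atp5b, the catalytic beta subunit, is not among the 3 lowest but is given for its role, chosen after its values were seen: it had 13.45 and 13.35 in GSK and 13.47 and 13.51 in DMSO (-0.08 ± 0.06). Above 0 were Atp5f1, a stalk subunit, at 0.06 ± 0.07, Atp5s, a coupling factor, at 0.04 ± 0.03, and Atp5j at 0.00 ± 0.04.

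Nuclear members have near-identical copies too, mostly processed pseudogenes. A match of at least 98% over 200 bases was found for 15 of them, and the copy was in the table for 12. For Atp5o and Ndufb9, counted among the 15, the match was another annotated gene overlapping the same locus and not a copy elsewhere. Some copies held much of the pair: Atp5g2, a c-ring gene, was listed at 5.17 and 5.31 in GSK and 5.13 and 5.45 in DMSO, while Gm10175, identical over 645 bases, had 10.96 and 10.81 in GSK and 10.95 and 10.91 in DMSO. Ndufb4 was listed at 7.22 and 7.13 in GSK and 7.21 and 7.18 in DMSO, and its copy Ndufb4c at 8.36 and 8.39 in GSK against 8.45 and 8.51 in DMSO. Of the genes named above, Ndufa12, Ndufs3, Atp5l, Atp5g1 and Atp5f1 have such copies and are uncertain. For Atp5l the copy with identical sequence, Gm10221, had the same change of -0.17. For Ndufa12 the copy, Gm15920, had 8.09 and 8.05 in GSK and 8.02 and 8.08 in DMSO. Its change was 0.02, against -0.13 for Ndufa12. The copy of Atp5g1, Gm10039, changed by -0.06, and that of Atp5f1, Gm12231, by 0.03 at 3.22 to 3.29. Nuclear members were not summed with their copies. Without the 15 members, Atp5o and Ndufb9 included, the 63 remaining gave a median of -0.02 with 51 below 0 and 26 lower without overlap (against 24.5% of all tested genes).

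The 2 sets were also compared within each library. The mean of the 13 mitochondrial members minus the mean of the 78 nuclear members was 2.83 and 2.91 in GSK and 2.56 and 2.47 in DMSO (log2), a difference of 0.36 between the groups. With copies summed it was 4.15 and 4.03 in GSK and 3.88 and 3.75 in DMSO, a difference of 0.27. These means are not per length, so only their difference between libraries can be read. The groups did not overlap in either form, but 2 against 2 libraries cannot reach an exact two-sided permutation p below 0.333. By complex, the summed difference was 0.28 in complex I, 0.35 in complex III, 0.23 in complex IV and 0.24 in complex V. In complex V the lower GSK library and the higher DMSO library were both at 2.99, and leaving out DMSO library 2 gave 0.0967, leaving out GSK library 1 gave 0.151 (settings added after seeing the data). In complexes I, III and IV the groups did not overlap. As listed, complex IV had 3.29 and 3.53 in GSK and 2.25 and 2.57 in DMSO, and complex V gave a difference of -0.18 with overlapping groups, which was 0.108 without DMSO library 1.

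**Figure D5:**
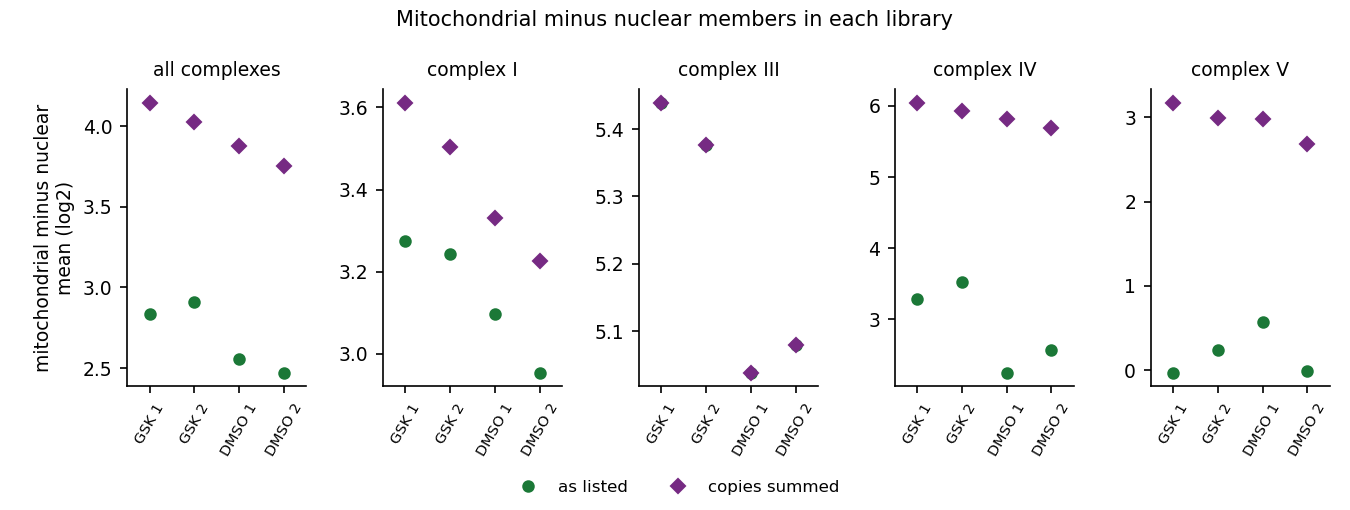
Mean of the mitochondrial members minus mean of the nuclear members (log2, vertical axis, a scale for each panel) in each library (horizontal axis), over all complexes and for complexes I, III, IV and V. With copies summed (purple diamonds), both GSK libraries lie above both DMSO libraries in every panel, in complex V with the nearest pair both at 2.99; as listed (green circles), they overlap in complex V and coincide with the summed values in complex III, where mt-Cytb has no copy.

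As a share of the summed linear values of all genes, the mitochondrial members with their copies took 1.68% and 1.52% in GSK and 1.40% and 1.33% in DMSO. The nuclear members took 0.413% and 0.400% in GSK and 0.414% and 0.419% in DMSO. The mitochondrial share was higher in both GSK libraries and the nuclear share lower. For the nuclear share the margin was very small, with 0.4133% in GSK library 1 and 0.4136% in DMSO library 1. The shares of the ribosomal RNAs of mitochondrial DNA overlapped, at 0.0876% and 0.0735% in GSK and 0.0864% and 0.0787% in DMSO. mt-Rnr1, the small one, had 12.21 and 12.01 in GSK and 12.53 and 12.40 in DMSO (-0.36 ± 0.08, limma adjusted p = 0.117), and mt-Rnr2, the large one, had 13.92 and 13.65 in GSK against 13.79 and 13.65 in DMSO (0.06 ± 0.10, limma adjusted p = 0.807). Neither rRNA gene passed. The pericyte or smooth muscle sum was higher in both GSK libraries and the epithelial sum lower. The leukocyte sum was higher through Cd53. Of the 6 tested leukocyte genes, 4 had estimates above 0 and 2, Cd3e and Csf1r, below 0, at changes of -0.30 and -0.12. Their part in the mitochondrial share was not tested.

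Other genes of mitochondrial biology, in lists drawn up with earlier results of these data known, had 0 genes past the adjusted threshold in limma in any list. An unadjusted p under 0.05 was seen for 1 gene higher and 2 lower of the mitochondrial ribosome, for 1 lower each in the TCA cycle and in mitochondrial mass and chaperones, for 1 higher in complex I assembly, for 2 lower among subunits and carriers that the names leave out, and for mt-Rnr1. Among all tested genes the share was 7.88% higher and 8.13% lower. The machinery that copies, transcribes and processes mitochondrial DNA had 14 of 25 tested genes below 0 and a median of -0.01. Tfb2m, a transcription factor of mitochondrial DNA, had 8.22 and 8.25 in GSK and 8.14 and 8.12 in DMSO (0.11 ± 0.04, limma adjusted p = 0.319), and Mtpap, the mitochondrial poly(A) polymerase, had 8.40 and 8.32 in GSK against 8.48 and 8.45 in DMSO (-0.11 ± 0.05, limma adjusted p = 0.350). In each gene the groups did not overlap. The mitochondrial ribosome had 50 of 78 below 0 with a median of -0.03, the TCA cycle 14 of 18 with -0.02, and the list of mitochondrial mass and chaperones 14 of 15 with -0.08. In the last list Hspd1, the mitochondrial chaperonin Hsp60, had 11.88 and 11.69 in GSK and 12.03 and 11.91 in DMSO (-0.18 ± 0.08, limma adjusted p = 0.314), and Slc25a5, an ADP/ATP carrier, had 11.57 and 11.51 in GSK against 11.65 and 11.72 in DMSO (-0.15 ± 0.05, limma adjusted p = 0.237). Both were lower in each GSK library than in each DMSO library.

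Assembly factors lay around 0, with medians from -0.01 (complex III, 6 genes) to 0.04 (complex V, 4 genes). Tmem126b, an assembly factor of complex I, had 8.02 and 8.00 in GSK and 7.90 and 7.85 in DMSO (0.13 ± 0.05, limma adjusted p = 0.250). Of 6 subunits and carriers that the names leave out, Etfb and Etfa, which pass electrons from fat oxidation to the chain, had changes of -0.14 each (limma adjusted p = 0.266 and 0.284). Cycs, cytochrome c, was at 0.03 with overlapping groups. Among transcriptional regulators, Nrf1 had 8.88 and 8.78 in GSK and 8.80 and 8.93 in DMSO, Gabpa, the DNA-binding subunit of GABP, had 9.73 and 9.68 in GSK against 9.80 and 9.76 in DMSO (-0.07 ± 0.04), and the coactivator Ppargc1a was below the filter at -1.01 to -1.02. The hypoxia isoforms showed no call: Ndufa4l2 had 11.50 and 11.49 in GSK and 11.76 and 11.51 in DMSO (-0.14 ± 0.08, limma adjusted p = 0.450), and Cox4i2 had 6.80 and 6.85 in GSK against 6.84 and 6.97 in DMSO (-0.08 ± 0.06, limma adjusted p = 0.525).

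Promoter sequences of the nuclear members were described, since the choice by name did not use them. RefSeq promoters (GRCm38.p6, 250 bases before to 50 after the start) were at hand for 64 of the 79, and 3 motifs were searched on both strands, with overlaps between motifs not removed. A motif of the factor NRF1 (GCGCA, then any base, then GCGC) was in 17 of 64 (26.6%), against 9.75% of 12262 protein-coding genes of the table. AAGATGGCG, a motif of YY1, was in 7 (10.9%, against 2.93%), and CCGGAAG, a motif of ETS factors such as GABP, in 16 (25.0%, against 17.2%). At least 1 motif was in 34 (53.1%, against 26.7%), and the difference was not tested. A match is a description of these letters and not a site. The pair below shows a promoter with 3 matches, of Cox6a1 (chr5:115348909-115349208, minus strand), a complex IV subunit with 11.17 and 11.14 in GSK and 11.20 and 11.26 in DMSO, and one with 1 match, of Atp5j2 (chr5:145191492-145191791, minus strand). Capitals mark the matches.
Cox6a1: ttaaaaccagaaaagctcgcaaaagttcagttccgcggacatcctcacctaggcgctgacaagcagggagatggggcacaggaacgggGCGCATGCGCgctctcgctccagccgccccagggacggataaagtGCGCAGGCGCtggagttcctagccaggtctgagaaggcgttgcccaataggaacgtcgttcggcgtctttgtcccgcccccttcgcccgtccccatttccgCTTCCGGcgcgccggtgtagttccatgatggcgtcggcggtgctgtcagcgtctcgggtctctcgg
Atp5j2: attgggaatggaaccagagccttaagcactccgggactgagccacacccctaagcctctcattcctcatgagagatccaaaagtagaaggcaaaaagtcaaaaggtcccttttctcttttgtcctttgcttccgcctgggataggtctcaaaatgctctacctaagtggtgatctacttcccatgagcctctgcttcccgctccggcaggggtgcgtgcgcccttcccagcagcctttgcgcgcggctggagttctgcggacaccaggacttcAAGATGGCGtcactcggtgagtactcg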

How the data were processed

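RNA was sequenced from fibroblasts of 4T1 tumours, with 2 libraries each in the GSK and DMSO groups, taken from the titles. The table that the authors deposited holds log2 values, normalised by them, for 22456 genes; the log2 unit was read from the values, which run from -1.04 to 20.58 with library medians of 6.15 to 6.16. Tools named in the submitters' processing notes are Bowtie2, RSEM 1.2.29 and DESeq2 1.12.4, and the genome builds GRCh38 and mm10; their roles are not stated. The transformation, annotation release and treatment of reads that match several places are not given in the sources used here. Log2 values can understate the change of low genes, and depth cannot be read from them.

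Symbols came from GENCODE M21, which held 22357 of the identifiers. limma 3.58.1 (R 4.3.3) was fitted to the deposited values, with no pseudocount, group as the one term, a variance prior following the mean, and two-sided p-values with Benjamini-Hochberg adjustment over 14548 genes, those whose mean reached 3.32 (log2 of 10). Standard errors (SE) are those moderated by limma, from 2 residual degrees of freedom. Near-identical copies were found with blastn 2.17.0. Summing took 2 to the power of each value of a gene and its copy, added them, replaced the rows by the log2 of the sum, and refitted the whole table. Sums and shares of linear values assume a plain log2 scale. The transformation is not given, so they are approximate. No gene had equal values in both libraries of a group.

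The members, lists, tests and rule for named genes were chosen with earlier results of these data known. The rule named all mitochondrial members and their copies, per complex the 3 nuclear members with the largest change in each direction, the tissue isoforms, and at most 2 genes of each other list by smallest p; not all of those are printed, 1 nuclear member is not reported by name here, and some marker and regulator genes are given beyond it. The alternatives included quantile normalisation, TMM scaling (trimmed mean of M values), other filters and variance priors, a block for the replicate number, leaving out each library in turn, copies summed, and members without copies. Combinations of summed copies with other choices, and libraries left out of the mitochondrial minus nuclear difference, were added after seeing the data.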

Additional observations from a re-analysis of the deposited data

How the results depend on the processing

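Over all tested genes, calls higher and lower in GSK numbered 22 and 19, against 0 and 1 with no filter, 11 and 12 after quantile normalisation, 5 and 6 with a variance prior without trend and 63 and 75 with a robust prior. Leaving out a library gave 4 (without DMSO library 1) to 72 (without DMSO library 2) higher and 3 to 122 lower, with the same libraries at the ends; the lone library of a group is then assumed to vary like the other group. Calls among nuclear members were 0 in each of these settings. Calls among mitochondrial members, 1 as listed, were 0 with no filter, without trend, with copies summed and with only the genes without a copy, and 1 to 2 with a library left out. The combinations of summed copies with a library left out, quantile normalisation or TMM, chosen after seeing the data, also gave 0. mt-Co3 missed the threshold with no filter (limma adjusted p = 0.222) and without trend (0.0599), and with copies summed lay between 0.0869 and 0.807 over the combinations tried.

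The labels do not say that a replicate number marks a shared mouse, day or batch. The differences between libraries 1 and 2 in the 2 groups correlated at 0.43 across tested genes, and with 2 pairs this does not establish pairing. With the replicate number as a block, 661 genes were higher and 713 lower, with 8 mitochondrial members higher (7 with copies summed, chosen after seeing the data) and 0 nuclear members. The changes themselves are the same with the block.

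The median change of mitochondrial members (0.25) ranged from 0.192 to 0.341 with a library left out, and from 0.129 to 0.313 with copies summed as well (0.159 without DMSO library 2); their mean was 0.321. The median of nuclear members stayed between -0.048 and -0.023, and 55 to 65 estimates were below 0. The mitochondrial minus nuclear difference of 0.357 was 0.272 with copies summed, 0.269 with only the genes without a copy and 0.267 with copies summed and nuclear members without a copy. With a library left out, added after seeing the data, it ran from 0.314 to 0.401 as listed and from 0.210 (without DMSO library 2; 0.213 without GSK library 1) to 0.334 with copies summed. The estimate of mt-Atp6 turned positive with copies summed (0.164, and 0.164 with the block, 0.146 with quantile normalisation, 0.165 with TMM, 0.065 to 0.263 with a library left out). That of mt-Nd3 turned positive without GSK library 1 (0.026) or DMSO library 1 (0.224), and with copies summed (0.224, and 0.224 with the block, 0.228 with quantile normalisation, 0.225 with TMM, and 0.135, 0.313, 0.282 and 0.166 without GSK libraries 1 and 2 and DMSO libraries 1 and 2). Its listed rows ran from -0.418 to 0.224 with a library left out. Among nuclear genes near 0, signs turned with a library left out for Ndufa13 (-0.0041 to 0.082), Sdhc (-0.056 to 0.031, and 0.015), Uqcrfs1 (-0.0098 to 0.053, and -0.0038), Cox5a (-0.031 to 0.081), Atp5f1 (-0.020 to 0.146) and Atp5j (-0.030 to 0.035). Summing changes which rows are tested; the other causes were not tested.

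With 2 libraries a group and unknown depth, no single nuclear member passed, and its set was described without a test. The rows of the 7 mitochondrial members with a copy are uncertain, as is that of mt-Atp8, and sums with copies cannot tell mitochondrial from nuclear transcripts.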
